A study of Drosophila melanogaster with 12 samples.

Results

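The genes described here are 10 Drosophila genes chosen by their rMATS scores, as those with a value below 0 at 1 or more levels of simulated splicing change: CG4300, Snap25, babo, laccase2, CG40498, Cnx99A, LM408, MRP, Mhc and qvr. They are 10 of the 16595 genes named in the authors' 2 gene lists. The libraries were simulated by computer and model S2 cells, a Drosophila embryonic line with hemocyte-like properties. The 12 libraries form 4 groups of 3 replicates: control libraries, labelled as given siRNA without a target, and libraries labelled as given siRNA against the splicing factor PSI, at simulated splicing changes of 20%, 40% and 60%. No cell was treated, so the values show how splicing programs scored a set answer. All 3 levels share the same 3 control libraries.

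The deposited tables hold 1 score per gene for each of 6 programs (JUM, MAJIQ, Whippet, Cufflinks, MISO and rMATS) at each level. A higher score was read as stronger evidence that splicing differs. One list names 2000 genes as alternatively spliced (AS list) and the other names 14595 as not (non-AS list). Each score covers the libraries of a level and the control together, so the spread of replicates is unknown. No test was run, and the depth behind each score is unknown. A gene was called at a score of 0.95 or more, or at a MISO Bayes factor of 10 or more.

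Mutually exclusive exons are neighbouring exons of which a transcript keeps 1 and skips the others, so that the protein swaps 1 stretch of sequence for another. Drosophila uses them widely in genes of muscle, nerve and cell surface. Skipped exons and shifted splice sites leave a sequence in or out, whereas mutually exclusive exons leave both isoforms with an exon in the same place. rMATS sorts splicing events into 5 types, and mutually exclusive exons are 1 of them.

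Annotated gene structure was not read by the rule, but the rMATS values that it read may depend on the type of splicing event. The count that follows is therefore not an independent check. Mutually exclusive exons were annotated in 9 of the 10. These 9 held a pair of exons that replaced each other between the same splice sites and that no annotated transcript contained together (Ensembl release 115, BDGP6.54). Over all 16333 genes matched to that annotation, 176 held such a pair (1.08%). The share was higher in the rMATS tables that the 10 genes were drawn from. These listed 1265, 1260 and 1256 genes at the 20%, 40% and 60% levels. Outside the 10 genes, 63, 63 and 62 of those listed held such a pair. The exception was CG40498 (arm 2R, 924636 to 951252, minus strand), whose 2 exons of 76 and 242 bases are noncoding and occur together in a transcript. In the annotation it is therefore not a gene with mutually exclusive exons, and no function is assigned to it here.

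Mhc, which encodes the muscle myosin heavy chain, had the most elaborate structure. It lies on arm 2L, 16766566 to 16788766, on the plus strand. Its 21 annotated transcripts held 5 clusters with 2, 4, 3, 5 and 2 alternative exons, of 144, 104, 171, 118 and 79 bases in gene order. MRP, a gene for an ATP-binding cassette transporter, followed with 2 clusters and 10 alternative exons (arm 2L, 12719045 to 12766546, plus strand, 18 transcripts). In MRP, 1 cluster held 2 exons of 147 bases and the other held 8 exons of 221 or 224 bases.

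The other 7 genes each had a single cluster. In babo, a type I receptor of the activin branch of TGF-beta signalling, 3 alternative exons of 209, 146 and 128 bases lay in 1 cluster (arm 2R, 8952339 to 8962796, plus strand). Snap25 encodes a SNARE protein of synaptic vesicle fusion, and its 2 exons of 49 bases each lay in a gene of 225026 bases (arm 3L, 24074180 to 24299205, plus strand). The alternative exons of laccase2, now named stw, were 196 bases each (arm 2R, 5413744 to 5456095, plus strand), and the gene encodes a multicopper oxidase of cuticle tanning. CG4300, now named Sms, for spermine synthase, had exons of 112 and 109 bases (arm 3L, 12271656 to 12277251, minus strand).

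Cnx99A encodes the endoplasmic reticulum chaperone calnexin and had exons of 126 and 129 bases (arm 3R, 29315254 to 29319644, minus strand). LM408, now named LManII, encodes a lysosomal alpha-mannosidase and had 2 exons of 134 bases (arm 2L, 10457658 to 10462472, plus strand). qvr, also known as sleepless, encodes a small membrane-anchored protein that acts on potassium channels and sleep. Its alternative exons had 48 and 57 bases (arm 2R, 11442505 to 11451604, plus strand).

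**Figure D1:**
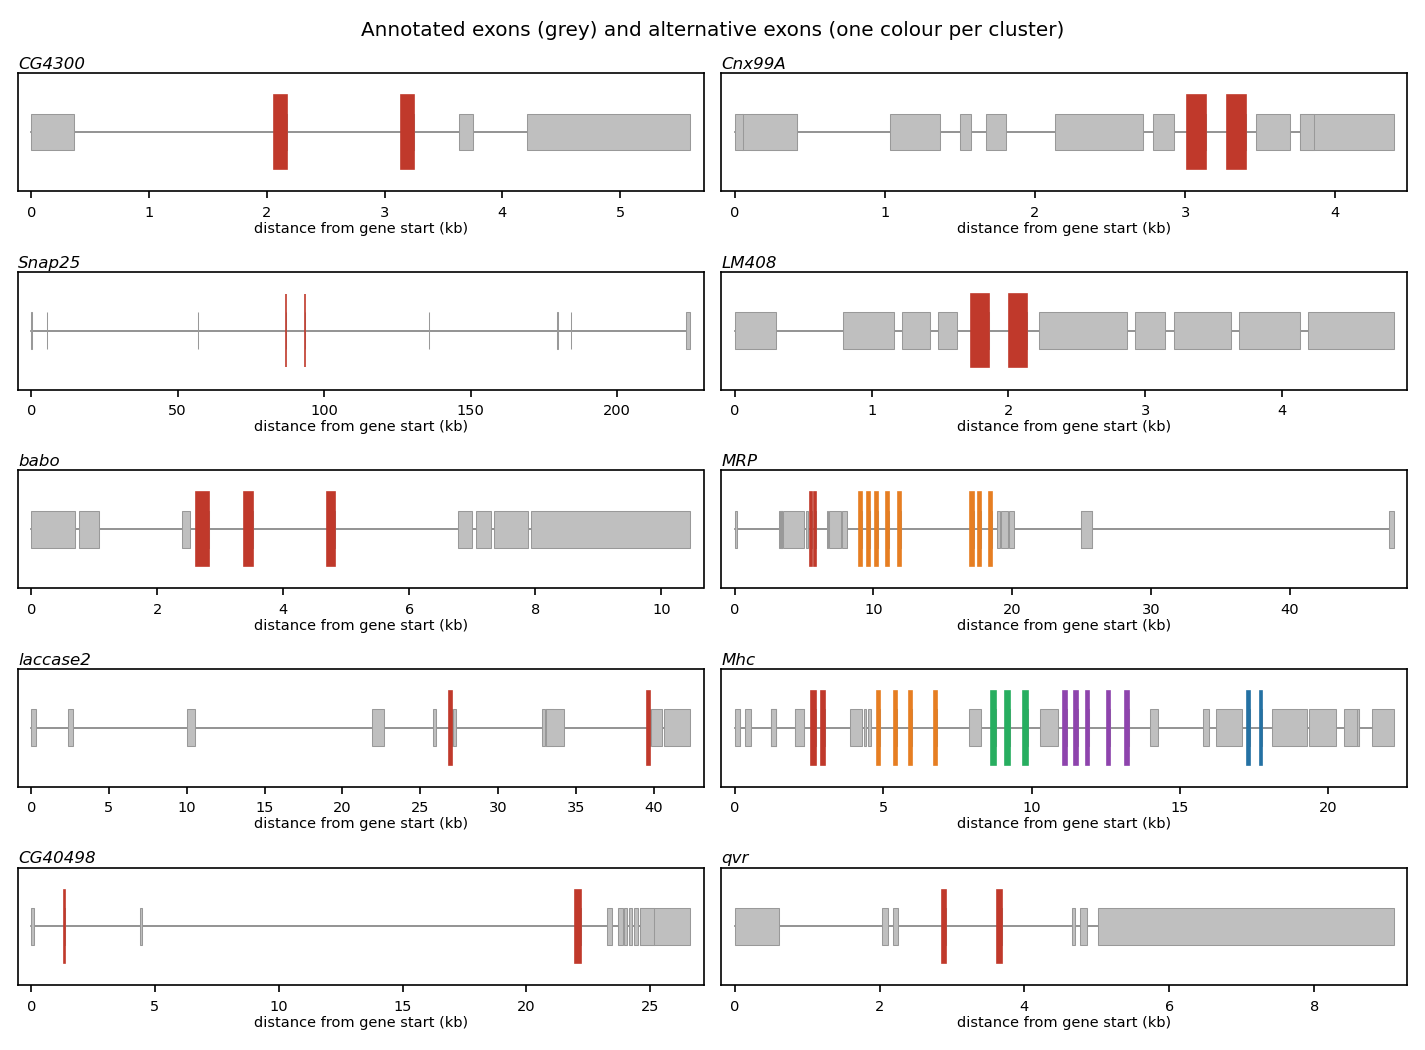
Exon maps of the 10 genes, with distance from the gene start in kb on each x axis, all annotated exons in grey and the alternative exons in colour, 1 colour per cluster. Mhc shows 5 clusters and MRP 2, and the other 8 genes show 1 each, including the pair of CG40498 that also occurs together.

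A swap of exons within a cluster kept the reading frame. In all 14 clusters of the 9 genes the exon lengths left the same remainder when divided by 3, against 159 of 209 clusters (76.1%) in the 167 other genes with such pairs. Among clusters in which every exon overlaps coding sequence, the other genes gave 152 of 184 (82.6%). Exons were of equal length in 9 of the 14 clusters (64.3%), against 42 of 209 (20.1%) in the other genes. All 5 clusters of Mhc are among these 9. These are counts from the annotation, and clusters of 1 gene are not independent of each other.

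The rMATS values that chose the genes were whole numbers outside the range from 0 to 1 of the other rMATS scores, and they are given as a description. In the authors' deposited table the rMATS value was -197 at the 20%, 40% and 60% levels for CG4300, babo, laccase2, Cnx99A, LM408 and MRP. Snap25 had -146 at each level in the authors' deposited table. These 7 genes thus showed the same number at every level, with no value between 0 and 1.

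Mhc was at -197 at the 20% level and at -176 at the 40% and 60% levels in the authors' deposited table. CG40498 was at -197 at the 20% and 40% levels and at 0 at the 60% level in the authors' deposited table, and qvr was listed only at the 40% level, with -154. Just outside the rule, 357, 348 and 263 genes had an rMATS value of exactly 0 at the 20%, 40% and 60% levels in the authors' deposited table. AGO2, an Argonaute protein of RNA interference, was among them at each level. The next values up in the authors' deposited table were 0.00188, 0.00139 and 0.00163. The counts of negative values were 9, 10 and 8 among 1265, 1260 and 1256 genes in the rMATS tables.

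The negative values were set beside the lengths of the alternative exons, a comparison made after the values were seen. For Snap25 the size of the value, 146, exceeded its exon length of 49 bases by 97. For qvr the size of 154 exceeded the longer exon of 57 bases by 97, and for Mhc the size of 176 exceeded the 79 bases of its last cluster by 97. The difference from the shorter qvr exon of 48 bases was 106. Mhc offers 5 exon lengths to match and Snap25 only 1. The same sum reaches 197 at an exon of 100 bases, and all 8 genes with a value of -197 held an alternative exon of 100 bases or more. CG40498 and Mhc also held a shorter one, of 76 and 79 bases. The 97, and with it the 100 bases, was taken from these same values. How many other genes with pairs hold an alternative exon that long was not counted, so the 8 genes have no share to be read against. rMATS reports the lengths of both isoforms of an event, as seen by its reads, beside the p-value of that event. Whether such lengths stand in the score column for these genes was not tested.

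**Figure D2:**
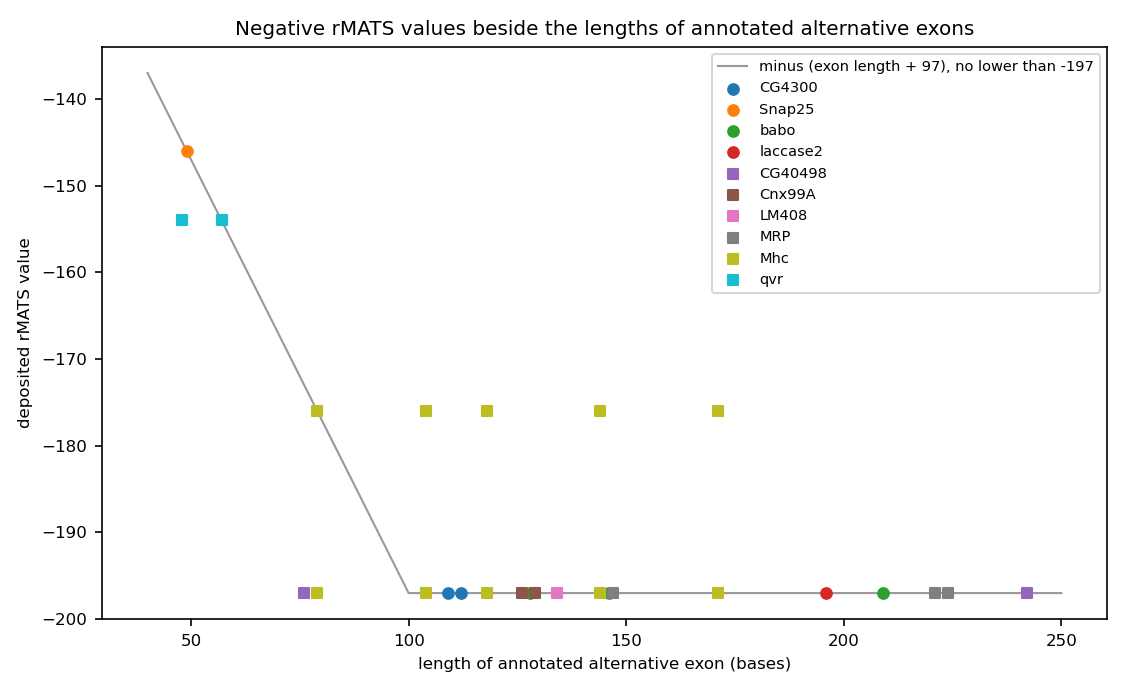
Deposited negative rMATS value (y axis) against the length in bases of each annotated alternative exon (x axis) of the 10 genes, circles for AS-list genes and squares for non-AS-list genes, with 1 point per distinct exon length and value. The grey line is minus the sum of exon length and 97, held at -197: Snap25, the longer qvr exon and 1 Mhc cluster lie on its slope, and the 8 genes at -197 each have a point on its flat part.

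Other annotated event types were also compared after the values were seen. Of 21 genes with an annotated pair and none of the 4 other event types (skipped exon, alternative 5' or 3' splice site, retained intron), 8 were in an rMATS table at 1 or more levels, and all 8 belong to the 10. The 8 are CG4300, Snap25, babo, laccase2, Cnx99A, LM408, MRP and qvr. Of 155 genes with a pair and 1 or more other types, 65 were in an rMATS table, and 1 of them, Mhc, had a negative value. Mhc held 3 of the other types and CG40498 held skipped exons. The 64 others were at 0 or more wherever rMATS listed them, which the rule fixes, since it takes every gene with a value below 0. At the 60% level, 62 of them were listed, and 26 were past the threshold.

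In those other genes with pairs, rMATS called 20 of 23 listed on the AS list and 6 of 39 listed on the non-AS list at the 60% level. Among all genes it listed at that level, it called 81.9% on the AS list and 4.67% on the non-AS list. Those other genes all hold other event types as well, so the event behind each call is not known. None of the 4 AS-list genes described here could reach the threshold, since their values lay below 0. Over both lists rMATS called 2.27%, 2.58% and 2.71% of genes at the 20%, 40% and 60% levels. It called 0 of the 10 genes at each level, of which 9, 10 and 8 had the negative values that chose them, 1 was at 0 at the 60% level, and qvr was not listed at the 20% and 60% levels.

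The AS list held 4 of the 10 genes, CG4300, Snap25, babo and laccase2, and the non-AS list held the other 6. The AS list makes up 12.1% of all genes but 40.4%, 40.7% and 40.4% of the genes in the rMATS tables at the 20%, 40% and 60% levels. The 40% of the 10 genes is thus close to the share in the tables they were drawn from.

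Over the 5 other programs and 3 levels, 44 of 48 listed scores of the 4 AS-list genes were past the threshold (91.7%), beside 6644 of 14516 for the whole AS list (45.8%). Of the listed scores of the 6 non-AS-list genes 4 of 54 were past it (7.41%), beside 652 of 50941 for the whole non-AS list (1.28%). The mix of programs that list a gene differs between the 10 genes and the lists, and its part in these shares was not tested. At the 60% level Cufflinks listed 12539 of the 14595 non-AS-list genes and called 0.239% of those listed, whereas JUM listed 899 and called 10%. On the AS list Cufflinks listed 1822 of 2000 and called 26.4%, whereas JUM listed 616 and called 91.9%. Of the 10 genes Cufflinks listed 10 and JUM 7. The whole-list shares thus weigh Cufflinks more than those of the 10 genes do. Scores of 1 gene and of the same libraries are not independent. At the 20%, 40% and 60% levels, 5, 6 and 4 of the 10 were called by 1 or more of these programs, against 5.49%, 6.41% and 6.97% of all genes. The share of all genes includes many genes that a program does not list: JUM listed 7 of the 10 genes at each level and 9.13% of all genes at the 60% level.

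JUM called 5, 5 and 4 of the 10 at the 20%, 40% and 60% levels, against 3.45%, 3.8% and 3.95% of all genes. MAJIQ called 3, 4 and 4, against 2.39%, 3.71% and 3.97%. Whippet called 5, 5 and 4, against 4.63%, 5.41% and 5.75%. Cufflinks called 2, 3 and 4, against 1.18%, 2.51% and 3.08%. MISO called 0 at each level, against 0.0121%, 0.0301% and 0.108%, and it listed 2, 1 and 1 of the 10.

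**Figure D3:**
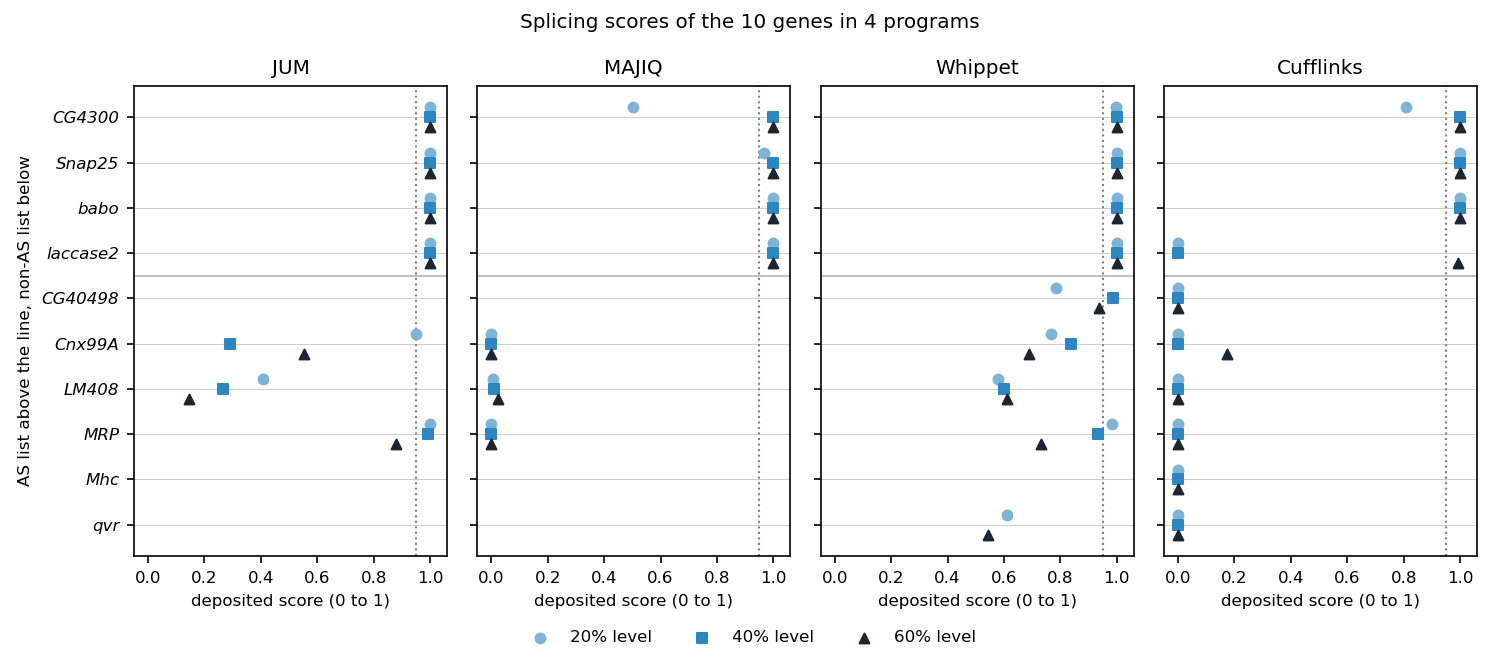
Deposited score (x axis, 0 to 1) of the 10 genes (rows) in JUM, MAJIQ, Whippet and Cufflinks, with circles, squares and triangles for the 20%, 40% and 60% levels and a dotted line at the threshold of 0.95. A missing symbol means that the program did not list the gene. The 4 AS-list genes above the horizontal line sit at or near 1 in JUM and Whippet, while Mhc appears in Cufflinks alone.

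Among the AS-list genes, babo and Snap25 were called by JUM, MAJIQ, Whippet and Cufflinks at every level. In the authors' deposited table babo scored 1 with JUM, MAJIQ and Whippet at the 20%, 40% and 60% levels. Its Cufflinks scores in the authors' deposited table were 0.998743, 0.999637 and 0.999741, the highest value of each table, shared with 86, 301 and 397 other AS-list genes. At the 20% level it shared its MAJIQ score of 1 with 68 other AS-list genes. Its readings were thus at the ceiling of each scale.

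Snap25 had the same JUM, Whippet and Cufflinks scores as babo at each level. With MAJIQ, the authors' deposited table gave it 0.966 at 20% and 1 at both larger changes. At 20% it stood near the middle of the AS-list genes that MAJIQ listed, with 354 of 729 higher.

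laccase2 was called by JUM, MAJIQ and Whippet at every level and by Cufflinks at the largest change only. Its JUM and Whippet scores were 1 at each level in the authors' deposited table. With MAJIQ it had 0.999995 at 20% and 1 at both larger changes in the authors' deposited table. Its Cufflinks scores were 0, 0 and 0.993 at the 20%, 40% and 60% levels in the authors' deposited table, so this gene had a strong reading from 3 programs at levels where Cufflinks gave none. A Cufflinks score of 0 was also the value of 1370 other AS-list genes at the 20% level.

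CG4300 lost calls at the smallest change. Its MAJIQ scores at the 20%, 40% and 60% levels were 0.502, 0.99999 and 1 in the authors' deposited table. Its Cufflinks scores were 0.809, 0.999637 and 0.999741 in the authors' deposited table. JUM gave 1 at each level, and Whippet 0.999, 1 and 1, in the authors' deposited table. Of the AS-list genes listed at the 20% level, 502 of 729 had a higher MAJIQ score than CG4300 and 263 of 1822 had a higher Cufflinks score.

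At each level 4 of the 4 AS-list genes were called by 1 or more of the 5 programs, against 38%, 43.2% and 46.1% of the AS list at the 20%, 40% and 60% levels. JUM called 4 at each level, against 25.8%, 27.9% and 28.3% of the list, and Whippet called 4 at each level, against 35%, 40.4% and 43.3%. MAJIQ called 3, 4 and 4, against 18.7%, 28.8% and 30.4%, and Cufflinks called 2, 3 and 4, against 9.2%, 19.7% and 24.1%. These shares depend on listing, since 91.9% of the AS-list genes that JUM listed and 56.4% of those that Whippet listed were called at the 60% level. MISO listed none of the 4 genes at any level.

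Among the 28 other AS-list genes with annotated pairs, JUM called 26 at each level and so did Whippet. JUM and MAJIQ listed 26 of the 28 at each level, Whippet 27 and Cufflinks 25. MAJIQ called 20, 26 and 26 of these 28 at the 20%, 40% and 60% levels, and Cufflinks called 2, 14 and 17. At 20%, Cufflinks thus did not call CG4300 and laccase2 among the 4 genes, and it called 2 of the 25 others that it listed.

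**Figure D4:**
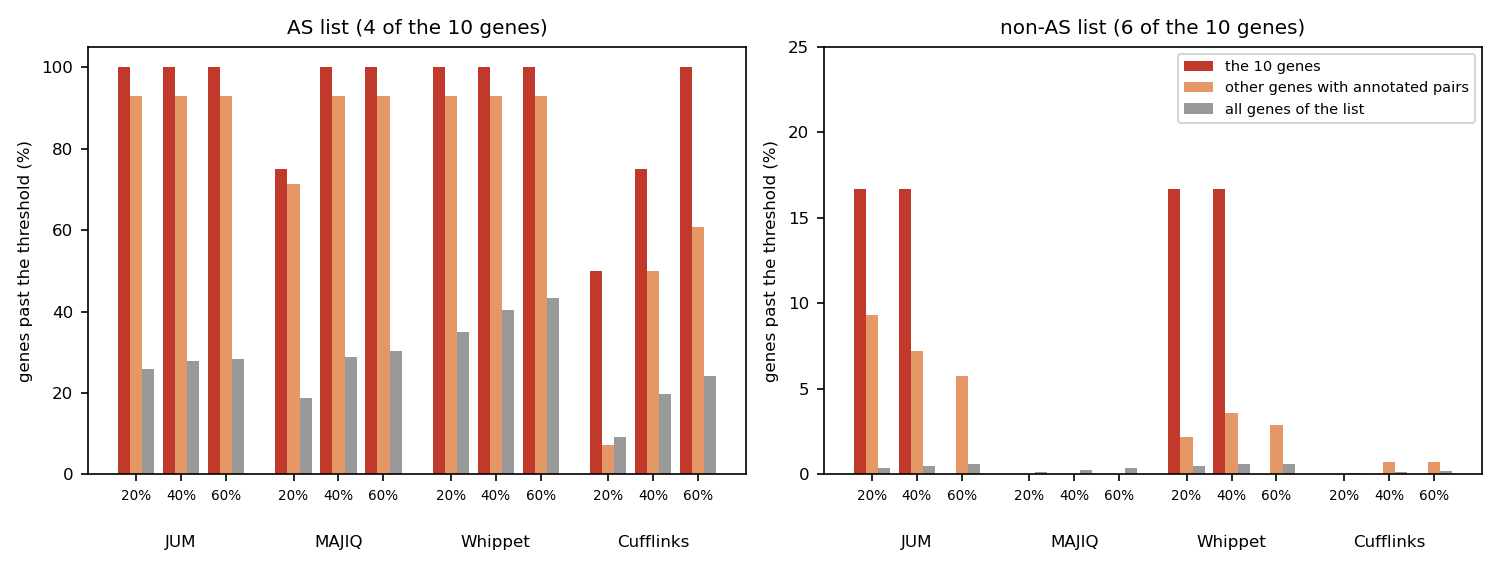
Percentage of genes past the threshold (y axis) in JUM, MAJIQ, Whippet and Cufflinks at the 20%, 40% and 60% levels, for the genes described here (red), other genes with annotated pairs (orange) and all genes of the list (grey). The left panel holds the AS list, with 4, 28 and 2000 genes, and the right panel the non-AS list, with 6, 139 and 14595 genes and a shorter axis, where each red bar stands for 1 gene.

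Among the 6 non-AS-list genes, MRP had the highest JUM readings. Its JUM scores at the 20%, 40% and 60% levels were 0.999944, 0.994 and 0.879 in the authors' deposited table, and its Whippet scores were 0.982, 0.932 and 0.73. JUM therefore called it at the 20% and 40% levels and Whippet at 20%. Both scores were lower at each larger level. Only 6 of 897 listed non-AS-list genes had a higher JUM score at the 20% level, against 145 of 899 at 60%. MAJIQ gave MRP 2.6e-06, 0.000286 and 3.55e-06 in the authors' deposited table, and its MISO Bayes factors were 0.72, 0.75 and 0.93. Cufflinks gave MRP 0 at each level in the authors' deposited table. The programs that listed MRP thus gave readings from nearly 0 to nearly 1 for the same libraries, but their scales are unlike. At the 20% level the medians of listed non-AS-list genes were 0.418 for JUM, 0.633 for Whippet and 0.00105 for MAJIQ.

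Cnx99A was not called by any program. Its JUM scores at the 20%, 40% and 60% levels were 0.949862, 0.292 and 0.553 in the authors' deposited table, and the first lies just under the threshold. Its Whippet scores were 0.767, 0.838 and 0.69 in the authors' deposited table. The MAJIQ scores were below 1e-05 at each level, with 9.07e-06 at 60% as the highest in the authors' deposited table. Cufflinks gave 0, 0 and 0.173, and MISO listed it at the 20% level only, with a Bayes factor of 0.74, in the authors' deposited table.

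LM408 stayed below the threshold in every program that listed it. In the authors' deposited table its JUM scores were 0.409, 0.265 and 0.147 at the 20%, 40% and 60% levels. Its MAJIQ scores were 0.00462, 0.009 and 0.0244 and its Whippet scores were 0.578, 0.601 and 0.612 in the authors' deposited table. The JUM scores were lower and the MAJIQ and Whippet scores higher at each larger level, all below their thresholds. Among listed non-AS-list genes its MAJIQ score was above the median at each level, with medians of 0.00105, 0.00187 and 0.00274. Its Whippet score was below the median at each level, with a median of 0.634 at 60%. Its JUM score was close to the median of 0.418 at 20% and below the median of 0.46 at 60%.

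Among the 5 programs other than rMATS, CG40498 was scored by Whippet and Cufflinks alone. Its Whippet scores were 0.785, 0.986 and 0.936 at the 20%, 40% and 60% levels in the authors' deposited table, so it was called at the middle level only. At a threshold of 0.9 the score at 60% would also pass. At 40%, 28 of 2090 listed non-AS-list genes had a higher Whippet score. Cufflinks gave 0 at each level in the authors' deposited table.

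The genes of muscle and nerve on the non-AS list had few readings. Mhc was listed by Cufflinks alone among the 5 programs, at 0 at each level in the authors' deposited table. qvr had Whippet scores of 0.612 at 20% and 0.545 at 60% in the authors' deposited table, no Whippet entry at 40%, and Cufflinks scores of 0. The tables hold no expression level, so a gene that is hardly expressed and one that is expressed with no splicing change cannot be told apart.

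Of the 6 non-AS-list genes 1, 2 and 0 were called by 1 or more of the 5 programs at the 20%, 40% and 60% levels, against 1.03%, 1.37% and 1.6% of the non-AS list. JUM called 1, 1 and 0, against 0.397%, 0.5% and 0.617%, and the 1 gene was MRP both times. Whippet called 1, 1 and 0, against 0.473%, 0.617% and 0.61%, and these were MRP at 20% and CG40498 at 40%. MAJIQ called none of the 6, against 0.158%, 0.267% and 0.349% of the list, and Cufflinks called none, against 0.0754%, 0.151% and 0.206%. These shares depend on listing. Of the non-AS-list genes it listed, JUM called 6.47%, 8.09% and 10% at the 20%, 40% and 60% levels, and it listed 3 of the 6 genes at each level. Whippet called 3.29%, 4.31% and 4.27% of those it listed, and it listed 5, 4 and 5 of the 6. Each count rests on 1 or 2 genes.

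Among the 139 other non-AS-list genes with annotated pairs, JUM listed 37, 39 and 38 and called 13, 10 and 8 at the 20%, 40% and 60% levels. Whippet listed 43, 42 and 43 of the 139 and called 3, 5 and 4. MAJIQ listed 40, 41 and 41 and called none. Calls of JUM on such genes were thus not limited to MRP.

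A list of 11 other Drosophila genes known for mutually exclusive exons was looked up beside these genes. In the annotation used here 10 of the 11 held a pair, and nAChRalpha6 did not. Only Dscam1, the cell adhesion molecule with the largest known set of such exons, was on the AS list. Its JUM, MAJIQ and Whippet scores were 1 at each level in the authors' deposited table, and its MISO Bayes factor was 0. The sodium channel gene para was on the non-AS list, with rMATS scores of 0.986, 0.991 and 0.994 at the 20%, 40% and 60% levels in the authors' deposited table. Its Whippet scores were 0.896, 0.878 and 0.857 in the authors' deposited table. Against these stood MAJIQ scores of 0.00331 at 40% and 0.0347 at 60%, Cufflinks scores of 0 at each level and a JUM score of 0.786 at 40%, its only JUM entry, in the authors' deposited table. nAChRalpha6, a subunit of the nicotinic acetylcholine receptor, reached 0.809 with JUM, 0.81 with MAJIQ and 0.884 with Whippet at the 60% level in the authors' deposited table. The other 8 were listed by Cufflinks alone or, for nAChRalpha4, by no program at the 60% level. Thus 2 of the 11 were called by 1 or more of the 6 programs at each level. Of the 11, rMATS listed para only, so Dscam1 and nAChRalpha6 had no rMATS score. None of the 11 could have a negative rMATS value, since the rule for the genes described here takes every gene with a value below 0.

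The genes with the scores most alike were found over JUM, MAJIQ, Whippet and Cufflinks at 3 levels, 12 scores in all, by the mean absolute difference. It was taken over the 1272 other genes listed in the same 12 tables. For babo the difference to CG1943 and CG30122 was 0. Ties were broken alphabetically, so other genes may be equally near to babo. Within 0.01 of babo lay 130 genes, and 133 lay so near to Snap25, whose nearest were CG15347 and CG1440. For laccase2 the nearest were ZnT63C and CG12746, with 6 genes within 0.01. For CG4300 they were Spred and CG34449, the only 2 within 0.01. The nearest genes of MRP were CG7029, at 0.0392, and shot, at 0.0442, and shot also holds an annotated pair of mutually exclusive exons. For Cnx99A they were Akap200 and eIF2B-delta, and for LM408 Sbf and CG7685.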

How the data were processed

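The libraries were simulated, per the labels. STAR 2.5.4b and Cufflinks appear in the submitters' processing notes with no stated role, as does the build dm3. Simulator, depth and program settings: not given in the sources used here. Each deposited score covers the replicates of a level and of the control together, and how each program combined them is not given. The authors deposited a score per gene for each of 6 programs and 3 levels (18 tables) and 2 gene lists. Each score was used as deposited. What each scale means was read from its values and the usual output of the program: a probability for MAJIQ and Whippet, the complement of a p-value or q-value for JUM, rMATS and Cufflinks, and a Bayes factor for MISO. Equal thresholds need not be equally strict.

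The 10 genes were taken by exact symbol, and they, the lists and the thresholds were chosen with earlier results of these data known. All 10 are named, with 11 other genes known for mutually exclusive exons as counts (with values where at least 3 programs list the gene at 60%), and the 2 nearest genes of each gene that at least 3 programs other than rMATS list.

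Gene models came from Ensembl (BDGP6.54, release 115). Of 16595 symbols 12402 are current ones there and 3931 are older ones that RefSeq ties to a single gene, 98.4% together. Coordinates, exon pairs and event types come from this annotation, not from dm3, and may differ from the gene models that the programs used. The event search recovered all of 100 simulated gene models of each kind. Python 3.11.15, numpy 2.4.6 and pandas 2.3.3 were used. The scores give no value by library, so no test, interval or fit by library was possible.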

Additional observations from a re-analysis of the deposited data

How the results depend on the processing

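At thresholds of 0.9 and 0.99 in place of 0.95, at Bayes factors of 5 and 20 in place of 10, and without Cufflinks, each count of the 10 genes called by a program or by 1 or more of the 5 programs stayed within 1.5 times its value. At 0.99 the Whippet calls of MRP at the 20% level and of CG40498 at the 40% level were lost, and so was the MAJIQ call of Snap25 at 20%. At 0.9 the JUM score of Cnx99A at 20% passed, as did the Whippet scores of MRP at 40% and of CG40498 at 60%, so that 1 of the 6 non-AS-list genes was called at the 60% level in place of 0. With exons allowed to occur together, 10 of the 10 genes held an annotated pair, and with both exons coding 9 did.

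With the count limited to genes that the program listed, the share of all genes called at the 20%, 40% and 60% levels was 38%, 41.6% and 43.3% for JUM, 20.1%, 30.9% and 33% for MAJIQ and 21%, 24.7% and 26.4% for Whippet. It was 1.36%, 2.9% and 3.56% for Cufflinks and 0.635%, 1.52% and 5.47% for MISO. These are higher than over both lists because fewer genes are counted.

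No paired analysis was possible because the tables hold no values by library, and leaving out a replicate was not possible for the same reason. The depth behind each score is unknown.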
